A study of Mus musculus with 2 samples.

Results

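The spots described here are 150 of the 2485 tissue spots of a mouse brain section and are called the Vxn/Myl4 spots. Each spot was given a score, the mean of ln(1 + UMIs per 10000) over Vxn, Myl4, Igsf21 and Bmp3 minus the same mean over Cplx3, Nxph3 and Ccn2. The 150 spots were chosen by the highest scores among spots over tissue with at least 500 UMIs, that is unique molecular identifiers, which count probe molecules. Those 7 genes selected the spots and carry no finding.

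Brains of 6-month-old male mice were sectioned and measured with Visium CytAssist, in which ligated probe pairs are moved from tissue onto barcoded spots. The series holds 2 samples, 1 labelled G2-3, from mice with A53T alpha-synuclein, and 1 labelled WT, from wild-type mice. The sources used here do not give the promoter that drives the synuclein transgene. The count matrices of both samples were the same, with 0 of 8667725 entries different and all 2722 barcodes shared, so they are the same data and were counted as 1 library. No genotype can be assigned to that library, and no G2-3 and WT values are compared. The spots used summed to 20997947 UMIs, and the Vxn/Myl4 spots held 1461452 of them, with a median of 9543.5 UMIs per spot (1753 to 23160) against 6465 in the other 2335 tissue spots. A spot covers several cells, and spots of 1 section are not replicates. Every difference below is therefore a description, with no test, and its 95% interval covers counting error only.

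The deep layers of the mouse neocortex hold most of the neurons through which the cortex addresses the rest of the brain. Corticothalamic cells of layer 6 project to the thalamus and are known for the transcription factors Tbr1 and Foxp2. Extratelencephalic cells of layer 5 project to the brainstem and spinal cord under the regulator Fezf2. Layer 6b is a thin sheet beneath layer 6, next to the white matter, and Cplx3, Nxph3 and Ccn2 are known from it.

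The largest group of Vxn/Myl4 spots followed the curve of the cortex on the right of the section. Of the 150 spots, 125 had another as a grid neighbour, and they fell into 38 connected groups, of which 25 were single spots. That group, called the main run, had 70 spots on array rows 21 to 42 and columns 94 to 111. The next had 18 and 10 spots. Further sets were drawn for comparison. The upper-layer spots were the 150 other spots with the highest mean over Cux2, Otof, Stard8, Rasgrf2 and Lamp5, and those beside the main run lay on its outer side. Of the 150, 39 fell below the Slc17a7 minimum given further on. The inner-band spots were drawn only from other spots at or above that minimum, unlike the upper-layer spots. They were the 80 of these with the highest mean over Cplx3, Nxph3 and Ccn2. They lay on the inner side of the Vxn/Myl4 spots, and 38 of them touched one, as did 17 upper-layer spots. The inner-band set was drawn after the data were seen, because the 80 lowest scores, planned as a layer 6b set, fell on spots of vessel and meningeal genes. Of 4028 genes, 474 (11.8%) were at least 2-fold higher in the Vxn/Myl4 spots than in those 80, and 238 (5.91%) lower. Among the lower, the smooth muscle gene Tagln had 1 UMI in the Vxn/Myl4 spots and 132 in the 80 spots.

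**Figure D1:**
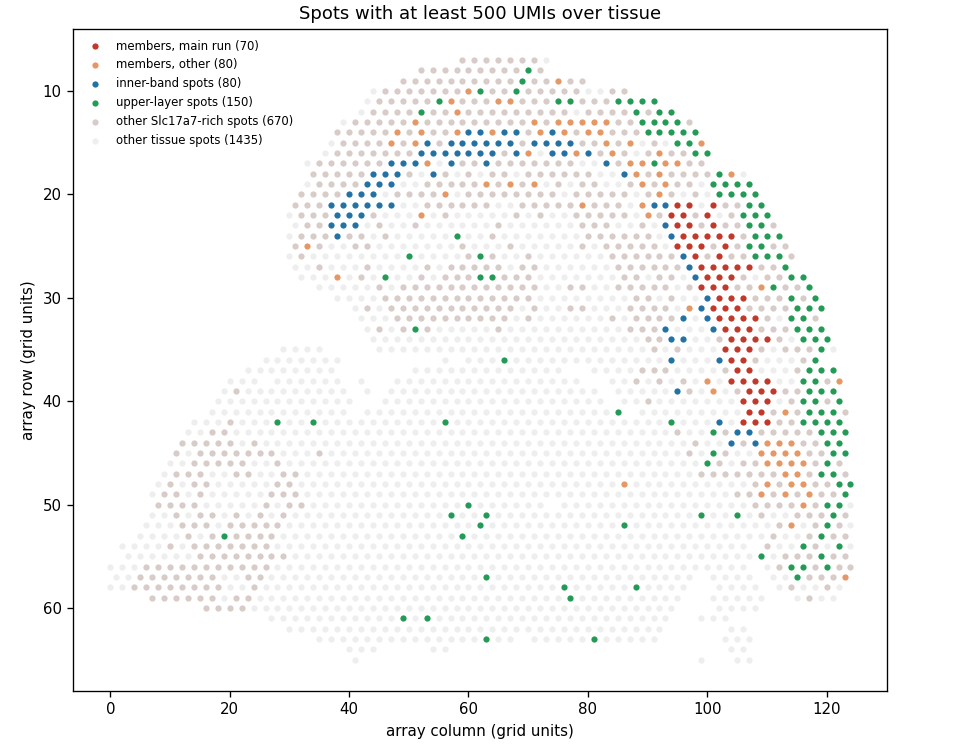
Array positions of the 2485 tissue spots, with array column and row in grid units. The main run of 70 Vxn/Myl4 spots (red) lies between inner-band spots (blue) and upper-layer spots (green), and the other 80 (orange) continue the line or stand alone.

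The score genes differed as the rule requires. Vxn, a gene of neuronal differentiation, had 1820 UMIs in the Vxn/Myl4 spots, with at least 1 in all 150, and 1245 counts per 1000000 UMIs of the set (CPM), against 286 CPM in the other tissue spots. Myl4, a myosin light chain, had 240 UMIs in 102 spots and 164 CPM, against 14.9 CPM in the other tissue. Vxn did not tell these spots from the inner band, where it stood at 1490 CPM. Neither did Igsf21, at 465 CPM in the Vxn/Myl4 spots and 563 CPM in the inner band, nor Bmp3, at 75.3 and 113 CPM. Myl4, which helped to choose the Vxn/Myl4 spots, stood at 164 CPM there and at 26.9 CPM in the inner band. The subtracted genes chose both sets, so their difference was set by the choice, with Nxph3 at 47.2 CPM and 434 CPM in the inner band. The last 10 spots inside the limit scored 0.910 to 0.928 and held 103 UMIs of Vxn and 16 of Myl4. The first 10 outside scored 0.898 to 0.9095 and held 111 UMIs of Vxn and 7 of Myl4.

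Against all other tissue, the genes most concentrated in the Vxn/Myl4 spots were Trbc2, Ighm, Col5a1, Arhgap25, Col6a1 and Rprm. These are named by the log2 ratio of CPM among genes with at least 100 UMIs over both sets. Called genes are those at least 2-fold apart, which gave 100 of 10996 genes (0.909%) higher and 802 (7.29%) lower. The median log2 ratio of all genes was -0.09. Col5a1, a chain of fibrillar type V collagen, had 130 UMIs in 61 Vxn/Myl4 spots and 330 UMIs in 228 of the other spots. Its counts per spot were 0 to 7 (median 0) and 0 to 8 (median 0), so the sets overlapped while its CPM was 88.9 against 16.9. The log2 ratio was 2.40 (95% counting interval 2.09 to 2.69). Col6a1, a chain of the microfibrillar type VI collagen, had 113 UMIs in 69 spots, against 322 UMIs in 229 other spots, a log2 ratio of 2.23 (1.91 to 2.54). Rprm encodes Reprimo, a p53-induced brake on the cell cycle that is also used as a marker of layer 6 neurons. It had 100 UMIs in 62 Vxn/Myl4 spots, against 322 UMIs in 256 others, a log2 ratio of 2.05 (1.72 to 2.38).

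Arhgap25, a Rac-inactivating protein best known from blood cells, had 37 UMIs against 105, a log2 ratio of 2.24 (1.65 to 2.79). The other 6 of the 12 highest genes were Gm11549 (log2 ratio 1.91), Trhde (1.89), Fam78a (1.85), Ramp3 (1.77), Hs3st2 (1.74) and Igfbp4 (1.72). Trhde degrades thyrotropin-releasing hormone, Ramp3 is a partner of calcitonin-family receptors, Hs3st2 modifies heparan sulfate and Igfbp4 binds insulin-like growth factors. Igfbp4 was the most often seen, with a UMI in 120 Vxn/Myl4 spots (median 2 and highest 19 UMIs per spot), against 815 of the other 2335 spots (median 0, highest 16).

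Several of the 8 lowest genes are known from outside the cortex. They were Ttr (1 UMI in the Vxn/Myl4 spots against 594), a choroid plexus carrier of thyroid hormone, and Tph2 (3 against 1586) and Slc18a2 (1 against 495), which make and load monoamine transmitters. The others were Tagln (1 against 440), Spp1 (2 against 803), Epn3 (1 against 374), Irx2 (0 against 1074) and Gata3 (1 against 358). With 0 UMIs set to 3 over the whole set, Irx2, a homeobox gene, was 26.8-fold lower in the Vxn/Myl4 spots. The upper end of its interval was a log2 ratio of -4.44. Tph2 had a log2 ratio of -5.31 (-7.58 to -3.76).

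**Figure D2:**
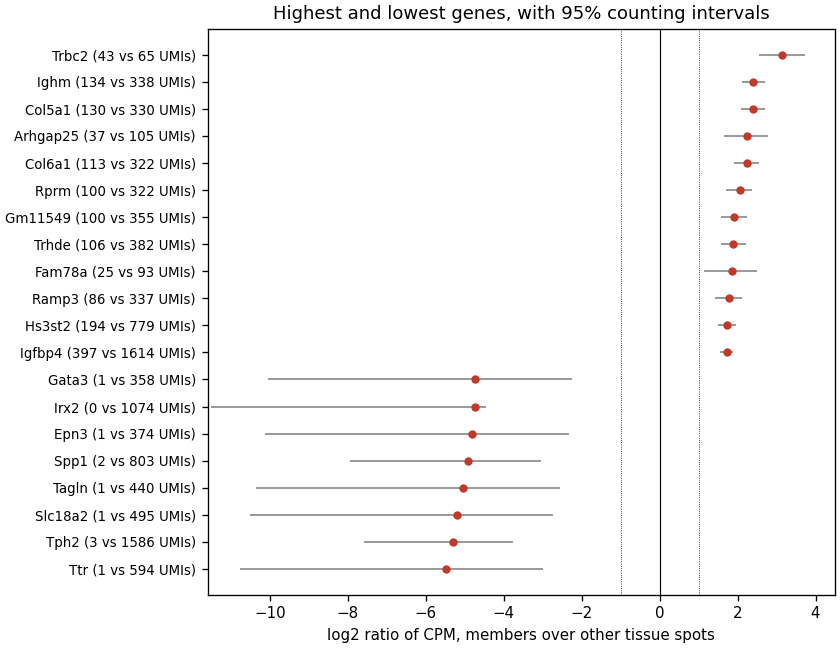
The 12 highest and 8 lowest genes by log2 ratio of CPM, Vxn/Myl4 spots over the other tissue spots, with bars for 95% counting intervals (that of Irx2 runs off the axis) and the UMIs of both sets. The highest genes lie between 1.72 and 3.14, and dotted lines mark 2-fold.

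Ighm, the constant region of the IgM heavy chain, and Trbc2, the second constant region of the T cell receptor beta chain, are known from lymphocytes. Ighm had 134 UMIs in 59 Vxn/Myl4 spots (39.3%), at most 7 in a spot, against 338 UMIs in 258 of the other spots (11.0%), a log2 ratio of 2.41 (2.11 to 2.70). At an equal depth of 2000 UMIs a spot, the expected share of spots with an Ighm UMI was 16.0% in the Vxn/Myl4 spots, 7.39% in the inner band (median depth 10775 UMIs), 1.91% in the upper layers (11198 UMIs) and 4.15% in all other tissue. Trbc2 had 43 UMIs in 33 spots against 65 UMIs in 59 others, a log2 ratio of 3.14 (2.55 to 3.72), and 23 spots held both genes. Other lymphocyte genes did not accompany them. Of 14 such genes, listed after these values were seen, 10 had no UMI in the Vxn/Myl4 spots, among them Cd79a, Cd3e and Igkc, and Trac had 1. Together the 14 had 7 UMIs (4.79 CPM) in these spots and 176 UMIs (9.01 CPM) in the other tissue. Only 4 of the 59 spots with Ighm, and 4 of the 33 with Trbc2, held a UMI of any of the 14. H2-T23, a nonclassical histocompatibility gene, was also high, with 212 UMIs and 145 CPM, against 44.4 CPM in Slc17a7-rich spots (log2 ratio 1.71, 1.47 to 1.94).

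Much of the section is not cortex, so the spots were next set against 861 other spots with at least 3011 CPM of Slc17a7, the vesicular glutamate transporter of cortical and hippocampal excitatory neurons. That level was the 10th percentile of the Vxn/Myl4 spots, of which 149 held a Slc17a7 UMI (median 48 a spot), and Slc17a7 is no finding here. By the same measure 48 of 9684 genes (0.496%) were higher and 268 (2.77%) lower. Ighm (log2 ratio 3.05), Col5a1 (2.05), Arhgap25 (1.95), Col6a1 (1.86), Rprm (1.73) and H2-T23 (1.71) were highest. The lowest were Spp1 (2 UMIs against 493), Irx2 (0 against 651), Epn3 (1 against 202), Krt2 (1 against 149), Card10 (1 against 135) and Tspan18 (3 against 389).

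Of the layer lists, that of layer 6 corticothalamic neurons stood highest in the Vxn/Myl4 spots against other tissue, but not against the inner band. Against other tissue, 10 of its 12 genes were measured, 9 were higher and 5 at least 2-fold, with a median log2 ratio of 1.01. Besides Col5a1 and Rprm these were Grik3, a kainate receptor subunit (100 UMIs against 527, log2 ratio 1.34, 1.02 to 1.65), the transcription factor Foxp2 (28 against 152, 1.30, 0.66 to 1.89) and the peptide receptor Vipr1 (30 against 197, 1.03, 0.42 to 1.58). Ntsr1, the neurotensin receptor used to mark corticothalamic cells, stood at 0.99 (0.56 to 1.41) with 55 UMIs against 369, Hs3st4 at 0.89 and the synaptotagmin Syt6 at 0.79. The corepressor Tle4 (0.46, -0.04 to 0.92) and Zfpm2 (-0.36, -1.02 to 0.23) had intervals that span 0. The list was not even over the Vxn/Myl4 spots. Its summed level had a median of 556 CPM per spot in the main run and 246 CPM in the other 80. The layer 5/6 near-projecting list went the other way, at 128 and 338 CPM.

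Against other tissue, the lists of other layers were not raised as a whole. The layer 4 list had a median log2 ratio of -0.63 and the layer 6 intratelencephalic and Car3 list -0.12. Of 12 layer 2/3 genes, 11 were lower and 3 by at least 2-fold, with a median log2 ratio of -0.68. Stard8 stood at -1.02, Cux2, a transcription factor of upper layers, at -0.89 (17 UMIs against 421), and Lamp5 was the 1 higher (0.45). Over the other settings Cux2 ran from -2.93 to 0.14 and Lamp5 from -0.42 to 0.73. Layer 5 genes were mixed. The extratelencephalic list had 5 of 10 measured genes higher and a median of -0.03, with Fezf2 at 1.18 (0.93 to 1.43, 156 UMIs against 918) and the neurofilaments Nefh at -1.58 and Nefm at -0.96. In the lower array rows alone Fezf2 stood at -0.0102 and Nefh at 0.0835, and Nefm ran from -1.52 to 0.0233 over the settings. The 4 measured genes of the layer 5 intratelencephalic list had a median of 0.02. All 3 of the near-projecting list were lower (median -0.59), among them Lypd1 at -0.79. Layer 6b genes outside the score had a median of -1.33 over 5 genes, with Nxph4 at -1.39 (9 UMIs against 315). The subtraction of 3 layer 6b genes in the score bears on that value, which turned to 0.11 when nothing was subtracted, as Nxph4 did to 1.06. In the lower array rows the median was 0.0747.

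Transcription factors of deep-layer neurons were listed after seeing values. Tbr1 had 51 UMIs in 39 Vxn/Myl4 spots against 225 UMIs in 186 others (log2 ratio 1.60, 1.13 to 2.04). Bcl11b, which acts downstream of Fezf2, had 15 UMIs against 60, below the minimum of 100 and given as an exception (1.74, 0.82 to 2.58), and Sox5 stood at 0.57 (0.23 to 0.89). Of the same list Cux1 (-0.66), Cux2 (-0.89) and Rorb (-0.52, -1.41 to 0.25) were lower. The Vxn/Myl4 spots held 51 UMIs of Tbr1 and 86 of Sox5 among 1461452 UMIs. The inner band held 33 and 70 among 930071, so neither gene was higher per UMI than there. The list of cortical excitatory genes had 11 of 12 higher, with a median of 0.86, and that of subcortical excitatory genes had all 5 measured lower, with a median of -2.87. In the subcortical list Slc17a6 had 6 UMIs against 585.

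Set against the upper-layer spots, and leaving out the 5 genes that chose them, 61 of 5754 genes (1.06%) came out 2-fold or more higher in the Vxn/Myl4 spots and 82 (1.43%) lower. After Ighm (3.20) came Grik3, with 100 UMIs in 67 Vxn/Myl4 spots (0 to 7 a spot) against 14 UMIs in 14 upper-layer spots (0 or 1), a log2 ratio of 3.06 (2.24 to 3.98). Fezf2 had 156 UMIs in 81 spots (0 to 7 a spot) against 23 UMIs in 21 spots (0 to 2), a log2 ratio of 2.98 (2.34 to 3.68), and both sets had spots without either gene. Rprm (2.69), Hs3st2 (2.53) and Sema3e (2.43), a semaphorin that steers axons and vessels, followed. Lower were Clec18a (23 UMIs against 184, -2.78), Smoc2 (17 against 122, -2.62), Igfn1 (77 against 433, -2.27), Rragd (18 against 99, -2.24) and the netrin receptor Unc5d (24 against 116, -2.05). Cartpt, which encodes a neuropeptide, was also among the lowest (-2.77), but 472 of its 518 UMIs in the upper-layer set came from 1 spot. All 6 measured genes of the callosal list were lower, with a median of -0.86, including the zinc transporter Slc30a3 (-1.19). The comparison spots were chosen by upper-layer genes, so the callosal value is not independent of that choice.

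Set against the inner band, the side nearer the white matter, 73 of 4790 genes (1.52%) passed 2-fold upward and 43 (0.898%) downward. The 6 highest were Slc30a3 (212 UMIs against 34, log2 ratio 1.99, 1.46 to 2.56), Lamp5 (1.90), Ighm (1.89), H2-T23 (1.87), the potassium channel Kcnk4 (1.81) and the membrane-anchored netrin Ntng2 (1.75). The 6 lowest were the semaphorin and VEGF receptor Nrp2 (27 UMIs in 20 Vxn/Myl4 spots against 123 UMIs in 44 inner-band spots, -2.84, -3.50 to -2.23), Sulf1 (-2.20), Zcchc12 (-2.19), the serotonin receptor Htr2a (-2.12), Sertm1 (-2.03) and the nuclear receptor Nr4a2 (-1.87). Fezf2 (-0.11, -0.47 to 0.26), Sema3e (0.02, -0.42 to 0.46) and Hs3st2 (0.29, -0.06 to 0.65) did not differ from the inner band beyond counting error. Col5a1 (1.42, 0.84 to 2.03), Col6a1 (1.17, 0.59 to 1.78) and Rprm (0.74, 0.19 to 1.32) were higher in the Vxn/Myl4 spots. Hs3st4 (-1.44, -1.84 to -1.04) and the corticothalamic marker Ntsr1 (-0.65, -1.22 to -0.09) were lower than in the inner band. Grik3 (-0.26, -0.70 to 0.19) had an interval that spans 0. The corticothalamic list had a median of -0.26 over 5 genes there, which was 0.13 with the main run alone and ran from -1.10 to 0.87 over the settings. The layer 2/3 list had a median of 0.71 over 4 genes, which became -0.31 with the main run. Layer 4 (0.79), layer 5 extratelencephalic (0.70), layer 5 intratelencephalic (0.69) and callosal (0.63) lists also stood higher, on few genes. Over the settings the extratelencephalic median fell to -0.76 and the intratelencephalic to -0.24. Near-projecting genes stood at 0.07, layer 6 intratelencephalic and Car3 genes at -0.46 and layer 6b genes at -0.73. Of the genes named here, Ntng2 (-0.43), Htr2a (0.53), Nr4a2 (0.15), Sertm1 (0.23) and Sulf1 (1.07) changed direction against the inner band when nothing was subtracted in the score.

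**Figure D3:**
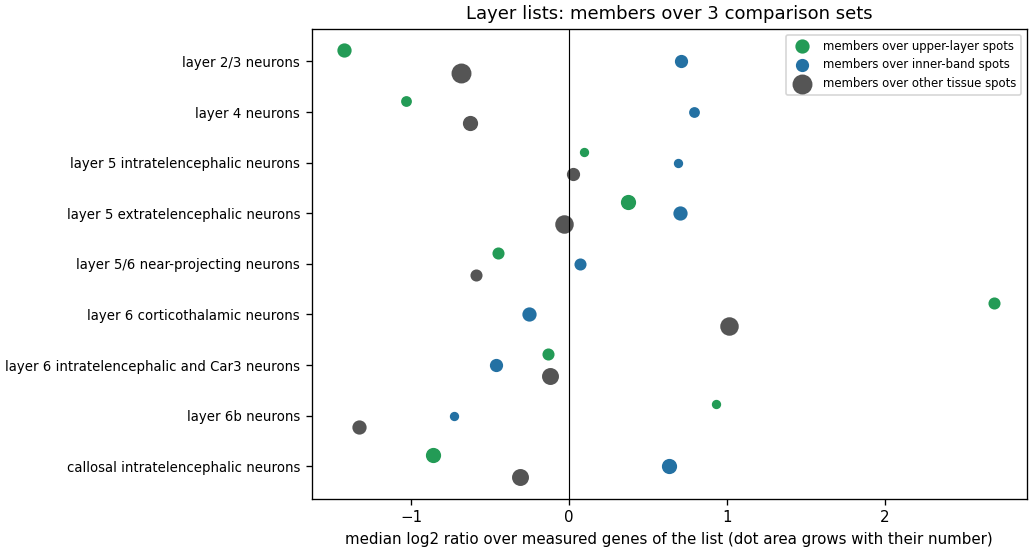
Median log2 ratio of each layer list for the Vxn/Myl4 spots over upper-layer spots (green), inner-band spots (blue) and all other tissue spots (grey), with dot area growing with the number of measured genes. The corticothalamic list lies at 2.69, -0.26 and 1.01 and the layer 2/3 list at -1.42, 0.71 and -0.68. The 5 genes that chose the upper-layer spots belong to the layer 2/3 list. They were left out of its green value, which is still not independent of that choice.

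**Figure D4:**
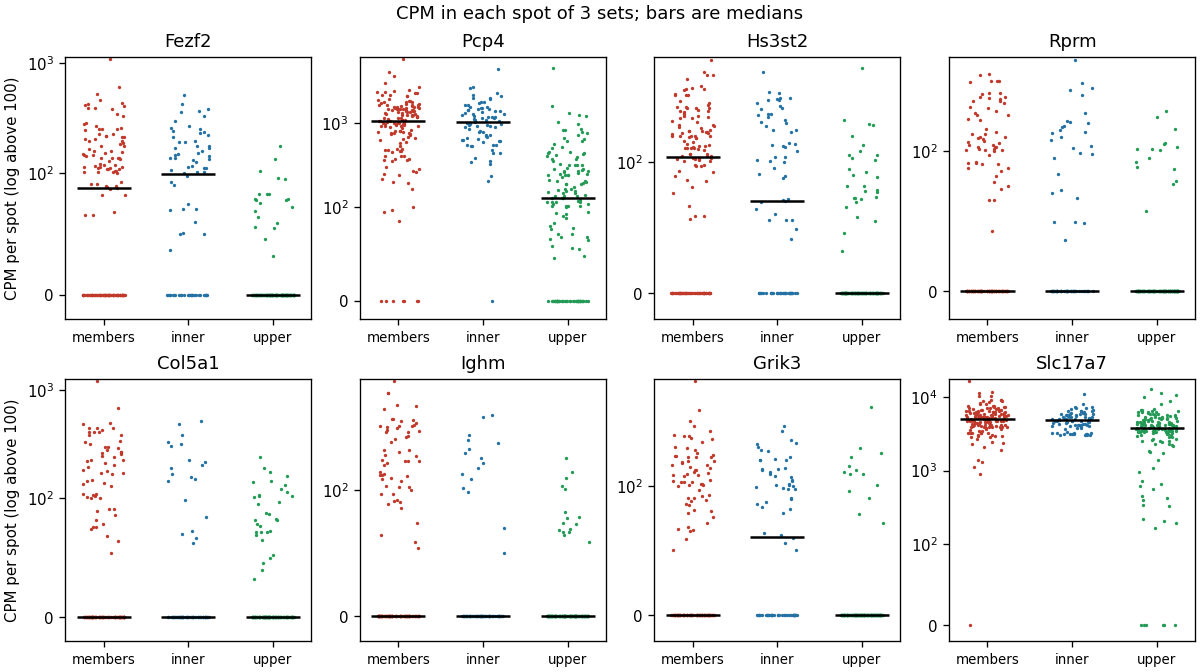
CPM of 8 genes in each Vxn/Myl4, inner-band and upper-layer spot, with bars for medians, on an axis that is linear to 100 and logarithmic above. The sets overlap for every gene shown, and for Rprm, Col5a1 and Ighm most spots of all 3 sets hold no UMI.

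The main run allowed the levels to be followed along the array rows to both sides of it. On each of its 22 array rows, spots were numbered by steps outward, to higher columns, from the middle of the run, and UMIs were summed over rows at each step. Members of the set made up 19 of 22 spots at step -1, 21 at step 0 and 19 at step 1. The myelin gene Mbp peaked at step -3 with 10806 CPM (10158 to 11485) and had 2736 CPM at step 0 and 498 CPM at step 6. Whether the steps inward of that peak lie in cortex was not tested. Nr4a2 stood at 148 CPM at step -7, 73.7 CPM at step 0 and 4.53 CPM at step 3. The leading genes had their highest values at different steps, several of them on few UMIs. Igfbp4 (439 CPM, 43 UMIs) and Trhde (143 CPM, 14 UMIs) were highest at step -2. Col5a1 (217 CPM, 39 UMIs), Rprm (145 CPM, 26 UMIs) and Trbc2 (77.8 CPM, 14 UMIs) were highest at -1. Ramp3 (84.2 CPM, 16 UMIs) was highest at 0, Col6a1 (145 CPM, 27 UMIs) at 1 and Hs3st2 (189 CPM, 39 UMIs) at 2. Fezf2 was highest inside the Mbp peak, at step -5 (293 CPM, 60 UMIs), and had 174 CPM at step 0. Ighm had 215 CPM at step -2, 211 at step -1 and 189 at step 0, and 13.2 CPM or less from step -7 to step -5 and from step 4 on to step 7.

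Other deep-layer genes peaked in the middle of the run. Grik3 reached 132 CPM (25 UMIs), Syt6 105 CPM (20 UMIs) and Sema3e 142 CPM (27 UMIs) at step 0. Pcp4, a calmodulin regulator chosen after its values were seen, was broad, with 1359 CPM at step -2, 1681 CPM at step 1 and 873 CPM at step 3. Slc30a3 had its highest value at step 4 (390 CPM, 102 UMIs) and Cux2 had 91.8 CPM there (24 UMIs) and 0 UMIs at step 0. Cux2 stayed near that level outward, with 114.7 CPM at step 7. Calb1, a calcium buffer, and Lamp5 were highest at step 6, at 459 and 299 CPM. Steps 7 and 8 held 18 and 7 spots. For Col5a1, Rprm, Trbc2, Grik3 and Sema3e the interval at the highest step overlapped those of the steps on either side, so their order within steps -1 and 0 is not fixed by these counts.

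**Figure D5:**
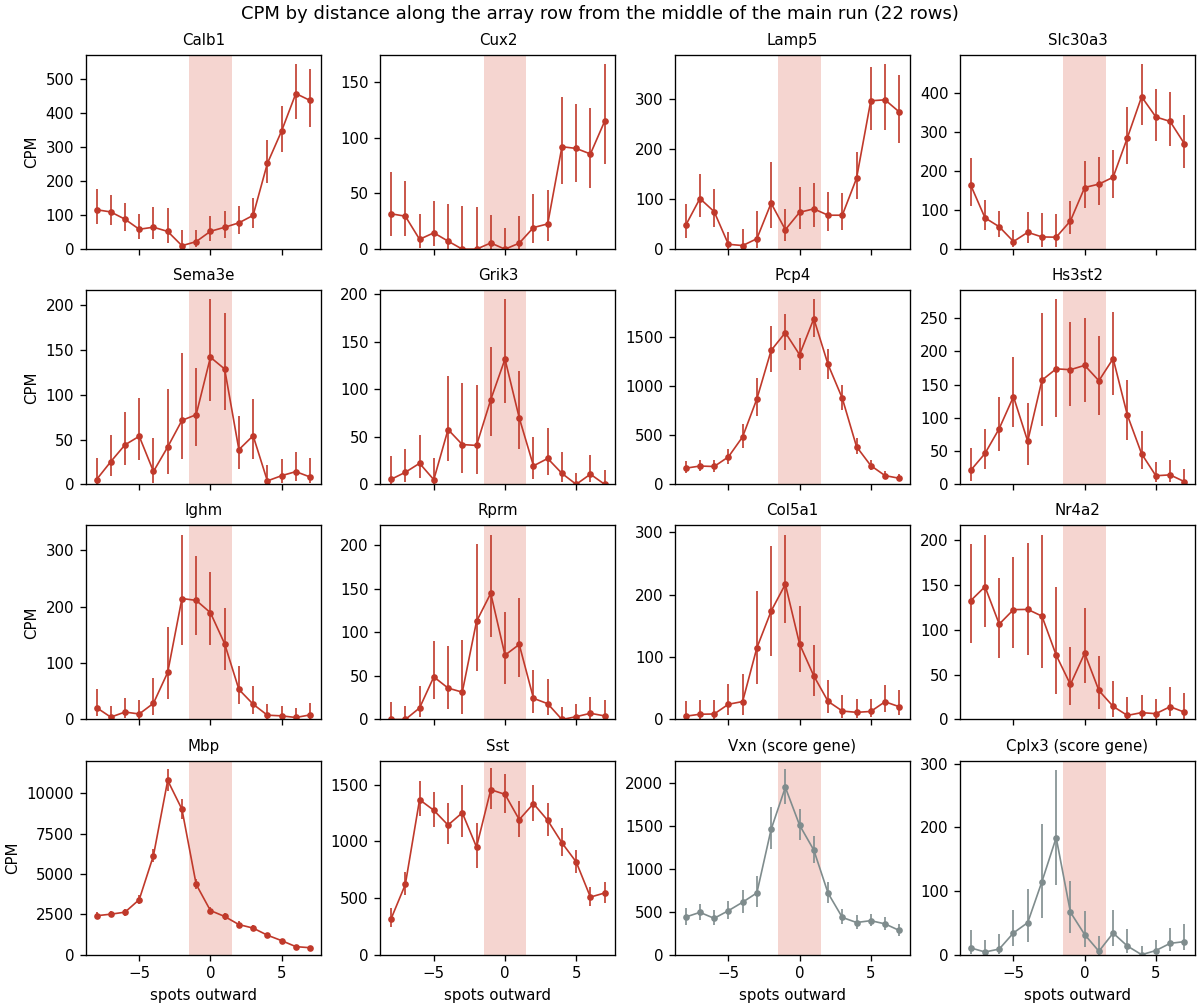
CPM, summed over 22 array rows, by spots outward from the middle of the main run, with 95% counting intervals; shading marks steps -1 to 1, and the outermost point has 18 spots. Mbp peaks at step -3, Col5a1 and Rprm at -1, Grik3 and Sema3e at 0, Hs3st2 at 2 and Calb1 and Lamp5 at 6; score genes are grey.

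The Vxn/Myl4 spots were not uniform. Against the 80 others, the 70 spots of the main run had 45 of 5424 genes (0.83%) higher by 2-fold or more and 84 (1.55%) lower, among genes with at least 50 UMIs. Ighm was highest, with 99 UMIs in 41 main-run spots and 35 UMIs in 18 of the others (log2 ratio 1.96, 1.39 to 2.56). The immediate early gene Fos (44 UMIs against 17, 1.83), the cadherin Cdh24 (1.82), the cortical homeobox gene Emx1 (1.62) and the myelin claudin Cldn11 (1.49) followed. Col23a1, a membrane collagen, was nearly missing from the main run, with 2 UMIs against 55, a log2 ratio of -4.32 (-7.40 to -2.40). Nnat (117 UMIs against 792, -2.30), Man1a (-2.13), Calb1 (-2.09), Cpne7 (-2.06), Cabp7 (-1.92), Lypd1 (-1.91) and Doc2b (-1.86) were also lower. All 12 leading genes had more CPM in the main run, by log2 0.57 (Fam78a, -0.67 to 1.84) to 2.38 (Trbc2, 1.29 to 3.62). Syt6 had 36 of its 42 UMIs there.

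Between single spots, the widest spread beyond counting error was in Ptgds, a prostaglandin synthase of the meninges, with 0 to 133 UMIs and a median of 3.5. Its variance was 99.6 times that of counts at equal CPM, against a median of 1.26 over 3348 genes. Mbp (23.6 times, 1 to 72 UMIs), Mobp (15.7), Sst (14.2), Fth1 (13.1) and Nnat (12.9) came next. Sst, the peptide of one class of inhibitory neurons, had 0 to 103 UMIs a spot and a median of 11, and 1677 CPM in the Vxn/Myl4 spots against 793 in other tissue, a log2 ratio of 1.08 (1.02 to 1.14). The summed meningeal and choroid plexus list was 0 to 57283 CPM (median 490) in these spots and reached 2540 CPM within the main run. Its part in the results was not tested beyond the main run alone.

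Most genes of glia, vessels and meninges had fewer CPM than in the rest of the section. Over all 10996 genes the median log2 ratio was -0.09, with 1329 intervals above 0 and 2044 below. All 11 measured oligodendrocyte genes were lower than in other tissue (median -0.98), and Mag, a myelin-associated glycoprotein, had 170 UMIs against 4987 (-1.13). In the lower array rows alone the list was higher, with a median of 0.44 and Mag at 0.99. Against Slc17a7-rich spots all 9 measured oligodendrocyte genes were higher (median 0.32), and none by 2-fold. Of 12 astrocyte genes 10 were lower (median -0.56), with Aqp4 at -2.09 and Gfap at -2.39, and of 15 microglial genes 13 were lower (median -0.26), 3 of them with an interval below 0. Against Slc17a7-rich spots 9 of 14 microglial genes were higher (median 0.18), none with an interval above 0. Of the 10 endothelial and mural genes 8 were lower (median -0.47), and all 9 meningeal and choroid plexus genes were (median -2.62). The GABAergic list was mixed, with 8 of 18 higher (median -0.13). Besides Sst these included Lhx6 (1.12) and Cort (1.11), while Calb2 stood at -3.99 with 21 UMIs against 4461. Fewer cells of a type and less RNA per cell cannot be told apart in these sums.

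Synaptic lists had medians within 0.27 of 0 and immediate early genes stood higher. The median of all genes was -0.09 against other tissue and -0.04 against Slc17a7-rich spots. Among 24 postsynaptic genes 21 were higher than in other tissue (median 0.27), led by Lrrtm2 (1.01), Nrgn (0.93) and Dlgap2 (0.89), but against Slc17a7-rich spots 13 were higher (median 0.02). Of 25 presynaptic genes 17 were higher (median 0.17), with the syntaxin Stx1a at 1.14 and Syt2 and Vamp1, which serve fast-firing synapses, at -2.23 and -1.98. Glutamate receptors of the AMPA and NMDA types had a median of 0.19 over 16 genes and of -0.02 over 15 against Slc17a7-rich spots. Of 12 immediate early genes 11 were higher (median 0.77), with Nptx2 at 1.43 (22 UMIs against 109), Arc at 1.27 (616 UMIs against 3409) and Nr4a1 at 1.00. Arc had 4 UMIs in the median Vxn/Myl4 spot (0 to 18), 1.5 in the inner band (0 to 8) and 3 in the upper layers (0 to 29). Its ratio was 1.35 (1.09 to 1.61) over the inner band and 0.03 (-0.12 to 0.19) over the upper layers. Arc stood at 627 CPM in the main run and 272 CPM in the other Vxn/Myl4 spots.

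Among receptors, channels and adhesion genes, single members lay far from the medians of their lists. The median of all genes was -0.09, near that of the axon guidance list. Axon guidance genes had 16 of 38 higher (median -0.10), with the kinase-dead receptor Ephb6 at 1.38 (169 UMIs against 871) and Sema3e at 1.05, and the semaphorin Sema6a at -1.38. Potassium channels had 25 of 36 higher (median 0.17), with Kcnv1 at 1.25 and Kcnh1 at 1.00. Sodium, calcium and HCN channels had 14 of 26 higher (median 0.06), and Scn4b stood at -1.29. Cadherins and protocadherins had a median of -0.25, with Pcdh20 at -2.51. Peptides and their receptors had a median of -0.41, with the neuropeptide Y receptor Npy2r at 8 UMIs against 617. Monoamine and acetylcholine receptors had a median of -0.14, with the muscarinic receptor Chrm2 at 3 UMIs against 246.

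Among the synuclein family, Sncb, the beta form, had 993 UMIs in 144 Vxn/Myl4 spots (0 to 42, median 6) and 12258 UMIs in 1950 other spots (0 to 72, median 3). Its log2 ratio stood at 0.11 (0.02 to 0.21), and Sncg, of peripheral and brainstem neurons, at -3.38 (-4.51 to -2.45) with 9 UMIs against 1249. The list of synucleins and Parkinson disease genes had 8 of 14 higher (median 0.07), and that of mitochondrial respiration 2 of 16 (median -0.09). The median of all genes was also -0.09.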

How the data were processed

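The deposited values are whole-number UMI counts per gene and spot, made with Space Ranger 3.1.1 per the file headers and the mm10 build per the submitters' processing notes, and the authors applied no normalization to them. The panel has 19465 genes. Spots were kept where the WT position list flags tissue and at least 500 UMIs were counted. Members, comparison sets and the 35 gene lists were chosen with earlier results of these data known. UMIs were added up within each set and scaled to CPM. The log2 ratio of CPM has an exact conditional Poisson interval (Clopper-Pearson, 95%), and a count of 0 was set to 3 counts per set for its value. Ranked and called genes needed 100 UMIs over both sets (50 within the Vxn/Myl4 spots). The exceptions are Bcl11b, the lymphocyte genes and, within the Vxn/Myl4 spots, the 12 leading genes and Syt6. Per-gene text follows a rule: the 12 highest and 8 lowest genes against other tissue, the 6 highest and 6 lowest in each other comparison, layer markers, the 3 most different genes of each list, Sncb and Sncg, and the 10 of largest spread. Genes named for the main run and as transcription factors were chosen after seeing values. Shares at 2000 UMIs are exact hypergeometric expectations, leaving out 1 Vxn/Myl4 spot and 71 other tissue spots below that depth. With 1 library there is no test. Scripts used Python 3.11.15, numpy 2.4.6, scipy 1.17.1, pandas 2.3.3 and matplotlib 3.10.9 and were tested on simulated data. Some genes are not reported here. No deconvolution or doublet step was run. Image files and pixel coordinates did not enter.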

Additional observations from a re-analysis of the deposited data

Results flagged for a closer look

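Spots outside the tissue flag entered no comparison, yet 79 UMIs of Vxn were counted in 46 of 235 such spots. That is 113 CPM of their 697435 UMIs, against 352 CPM over all tissue spots and 1245 CPM in the Vxn/Myl4 spots. Of the 187 such spots with at least 500 UMIs, 2 scored as high as the Vxn/Myl4 spots. Their median depth was 2507 UMIs, and whether their counts come from tissue beyond the flag or from free RNA was not tested.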

How the results depend on the processing

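Over 21 other settings, 31 of 62 list medians and 63 of 232 gene ratios changed sign in at least 1 setting. Of these, 1 median and 14 ratios were at least 2-fold as reported, with 16 changed values, all given here. The cause was not tested except where the setting itself changes the spots or genes. Counts of genes at least 2-fold apart are given as higher and lower, and in the order other tissue, Slc17a7-rich, lowest-score, upper-layer and inner-band spots. At a minimum of 20 UMIs they were 255 and 1252, 200 and 743, 1007 and 1177, 217 and 349, and 379 and 222, and at 500 UMIs 40 and 202, 10 and 69, 128 and 37, 13 and 18, and 10 and 4, as more or fewer genes entered. With the interval wholly past 2-fold they were 27 and 165, 16 and 62, 92 and 131, 27 and 26, and 19 and 18. Against other tissue, the higher count was 209 with equal weight per spot, 167 with nothing subtracted in the score, 24 in lower and 237 in higher array rows, 51 without Vxn in the score and 231 with the main run alone. The lower count was 126 in lower array rows and 447 without Vxn. Against Slc17a7-rich spots, the higher count was 28 with 200 members, 96 with nothing subtracted, 21 with spots of matched depth, 27 in lower and 123 in higher rows, and 139 with the main run. The lower count was 125 at matched depth, 79 in lower and 439 in higher rows, and 610 with the main run. Against the lowest-score spots, the higher count was 267 with median-ratio scaling, 174 in lower rows, 66 without Vxn, 256 without Igsf21, 204 without Cplx3, 198 without Ccn2 and 305 with the main run. The lower count was 77 in lower and 154 in higher rows, 62 without Vxn, 132 without Ccn2 and 158 with the main run. Against upper-layer spots, nothing subtracted gave 107 higher and 150 lower, lower rows 45 lower and the G2-3 tissue flag 48 lower. Against the inner band, the higher count was 25 with nothing subtracted, 46 at matched depth and 47 in lower rows, and the lower count 14 at matched depth, 28 in higher rows, 27 with the G2-3 flag and 81 with the main run. With nothing subtracted, which kept 82 of the 150 spots, the layer 2/3 median against other tissue was -1.57, the corticothalamic 1.51 and the layer 6b 0.11, Nrp2 stood at 0.22, Nxph4 at 1.06 and Prph at 2.15, and against the inner band Htr2a at 0.53, Nr4a2 at 0.15, Ntng2 at -0.43, Sertm1 at 0.23 and Sulf1 at 1.07. In lower array rows the corticothalamic median was 0.53, the layer 6b 0.0747, the oligodendrocyte 0.44, 1110032F04Rik -0.0858, Fezf2 -0.0102, Mag 0.99, and Nefh 0.0835. Drd2 turned to 0.0316 without Vxn and Penk to 0.10 without Igsf21. The layer 2/3 median was -1.36 with the main run. Across all settings Col5a1 stayed between 1.84 and 3.00 against other tissue, Rprm between 1.02 and 2.88, Ighm between 1.27 and 3.22 and the corticothalamic median between 0.53 and 1.51. The main run, added after seeing the data, turned the layer 2/3 median against the inner band to -0.31. No paired analysis was possible because both samples hold the same library, and no replicate could be left out. Depth limits genes under 100 UMIs, which were neither ranked nor called.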
